A study of Mus musculus with 6 samples.

Results

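Rarres1, its namesake Rarres2 and 6 genes that bind, make or break down retinoids were followed in liver of ErbB4-/- and control mice. Rarres1 was chosen by its measured values, because it had been seen higher in ErbB4-/- liver, and the 7 others, Rarres2, Rbp4, Aldh1a1, Aldh1a2, Dhrs3, Cyp26a1 and Cyp26b1, were listed for their known roles. The difference of Rarres1 is therefore given as a description, with no test. Of the 8 genes, 7 were measured among 22180 genes, each by 1 probe set. Rarres2 had only a probe set that it shares with Lrrc61, a gene that overlaps it in the RefSeq annotation of assembly GRCm38.p6, so no value of that probe set is given as Rarres2. The question was whether the retinoid genes follow Rarres1.

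Controls were 3 wild type C57BL/6J mice, and 3 mice were full ErbB4 mutants kept alive by a transgene that overexpresses ErbB4 in the heart (ErbB4-/-HER4heart), backcrossed to C57BL/6J. The sources used here do not name the promoter that drives the transgene, and effects of the mutation and of the transgene cannot be told apart. All 6 mice had received 1 dose of DEN, by its usual meaning the liver carcinogen diethylnitrosamine, on postnatal day 14. One label field gives 32 weeks until dissection for every mouse. By the other field the controls, in replicate order, were dissected at 32, 33 and 34 weeks and the mutants at 35, 36 and 37, and group and age would then be confounded.

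Liver is the main store of vitamin A in the body. Hepatocytes release retinol into blood on the carrier protein RBP4, and stellate cells, the pericytes of the sinusoids, keep retinol as esters made by the enzyme LRAT. Retinol is oxidised to retinal by alcohol and retinol dehydrogenases, and retinal to retinoic acid by the ALDH1A enzymes, while DHRS3 turns retinal back into retinol. Retinoic acid binds the RAR and RXR nuclear receptors, which switch on target genes such as Cyp26a1, whose product destroys retinoic acid. RARRES1 is a membrane protein named for its induction by retinoids and related in sequence to latexin, an inhibitor of carboxypeptidases. RARRES2 is chemerin, a secreted ligand of the receptor CMKLR1.

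RAR and RXR bind as a pair to direct repeats of a 6-base unit, in the classical case with 5 bases between the units. Promoter windows of 300 bases from RefSeq (GRCm38.p6), 250 before a transcript start and 50 after it, were searched on both strands for 2 units in direct repeat, the unit being AGGTCA or AGTTCA, with GGGTCA and also GGTTCA allowed. A repeat with 5 bases between the units was present in 32 of 32851 windows, or 0.0974%. Among the 95 members and other retinoid genes examined, 69 had a window, and 2 of these, Cyp26a1 and Rarb, held such a repeat. Both are shown with the units in capitals, the Cyp26a1 repeat being on the strand opposite to the gene, at chr19:37697770-37697799, plus strand, and the Rarb window at chr14:16575506-16575535, minus strand.
Cyp26a1: taaagaTGAACTttgggTGAACTaatttgt
Rarb: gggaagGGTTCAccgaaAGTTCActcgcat

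In Cyp26a1 the repeat ended 16 bases before the transcript start and in Rarb 37 bases before it. The window of Rarres1 is shown because this gene carries the difference described here. Its 250 bases before the start lie at chr3:67515524-67515773, minus strand, and hold a single unit, GGGTCA on the opposite strand, in capitals, 77 to 82 bases before the start.
Rarres1: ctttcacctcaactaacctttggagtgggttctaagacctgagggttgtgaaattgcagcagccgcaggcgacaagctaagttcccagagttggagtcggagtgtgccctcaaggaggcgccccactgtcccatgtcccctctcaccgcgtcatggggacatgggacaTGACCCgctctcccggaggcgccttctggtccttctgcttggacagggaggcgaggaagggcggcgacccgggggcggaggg

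For comparison, 43.7% of all windows held at least 1. No repeat with 1, 2 or 5 bases between the units was found in this window, nor in those of Rbp4, Aldh1a1, Aldh1a2, Dhrs3 or Cyp26b1, and repeats with 1 or 2 bases between occurred in 0.222% and 0.268% of all windows. A match is a description of letters, not evidence of binding, and no match says only that the letters are not in this window.

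The arrays had median log2 values between 4.83 and 4.86. In the fit over all genes 1 of 22180 passed, or 0.00451%, the chloride channel regulator gene Clca3a1 (limma, adjusted p = 0.0463). Values here and below are in replicate order. The values of Erbb4 itself were 5.42, 5.73 and 5.42 in the controls, overlapping the mutants with 4.75, 5.36 and 5.61, a difference of -0.28 that did not pass (limma, adjusted p = 0.772). Which part of the gene its probe set reads was not examined, so this does not check the labels. A pair of arrays stood apart. In control replicate 1 the mean of 15 male-biased liver genes was 7.77, against 10.61 to 10.97 on the 5 other arrays, and the mean of 16 female-biased genes was 6.76, against 5.35 to 5.68. ErbB4-/- replicate 3 had the lowest macrophage and endothelial marker means. Its highest correlation with another array, across probe sets, was 0.978, where that of each other array was 0.984 to 0.986 after rounding. Values without these arrays are given for the members and for Lrat, Rdh16 and Cyp2c39 where they move by over 1.5 times or change sign.

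The log2 values of Rarres1 were 7.60, 8.32 and 8.21 in the controls, against 9.10, 9.22 and 9.70 in the mutants. Every ErbB4-/- array lay above every control array, with a gap of 0.78 on the log2 scale between the groups, and the lowest value was that of control replicate 1 and the highest that of ErbB4-/- replicate 3. The means were 8.04 ± 0.39 and 9.34 ± 0.31 (SD, n = 3 each), which differ by 1.30 (SE 0.25), or 2.45-fold. The gap was close in size to the spread within each group, which ran over 0.72 in control and 0.59 in ErbB4-/- liver. Among all genes 13 had a larger difference upward, and groups without overlap, higher in ErbB4-/-, were found for 4.52% of genes.

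**Figure D1:**
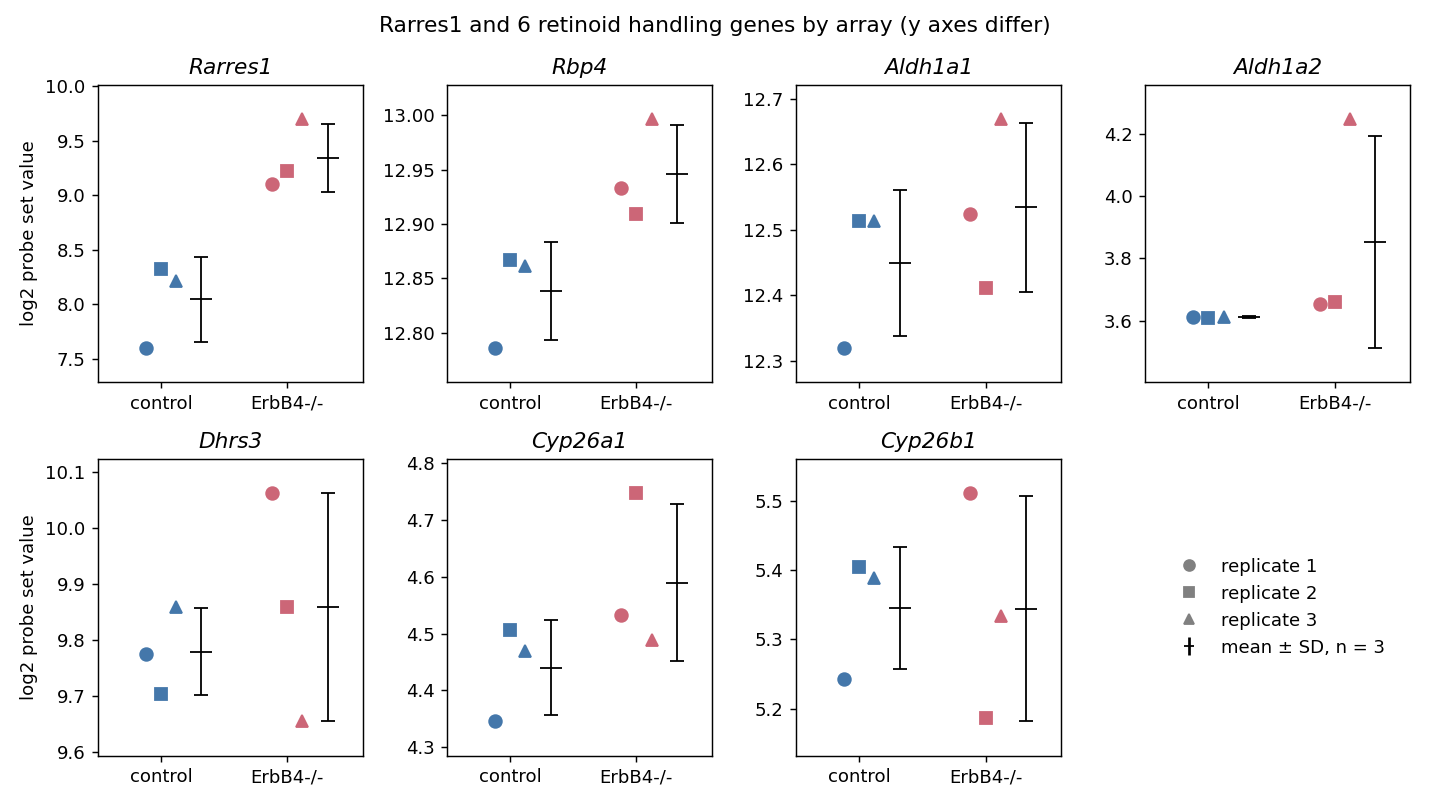
Log2 probe set values (y axes, each with its own range) of Rarres1 and the 6 measured retinoid handling genes in control and ErbB4-/- liver, 1 point per array and mean ± SD beside them (n = 3). Rarres1 spans 7.60 to 9.70 with no overlap between the groups, while the whole range of Rbp4 is 12.79 to 12.997.

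Single arrays and the stated week moved the size of the Rarres1 difference. Leaving out control replicate 1 gave 1.07, leaving out ErbB4-/- replicate 3 gave 1.12, and with neither array it was 0.89. Within control liver Rarres1 differed by 0.31 log2 units per stated week, and within ErbB4-/- liver by 0.30, each from 3 arrays. These slopes, and the week term of the fit below, come only from the first and last week of each group. Control replicate 1 and ErbB4-/- replicate 3, which stood apart, are among those arrays. From week 33 to 34 control liver went from 8.32 to 8.21, and from week 35 to 36 ErbB4-/- liver went from 9.10 to 9.22. A fit with both week and group attributed 0.30 per week to the week and left 0.39 (SE 0.31) to the group, or 1.31-fold. If the other label field holds and all mice were dissected at 32 weeks, this correction does not apply. Whether age moves Rarres1 was not tested, since the groups share no week.

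**Figure D2:**
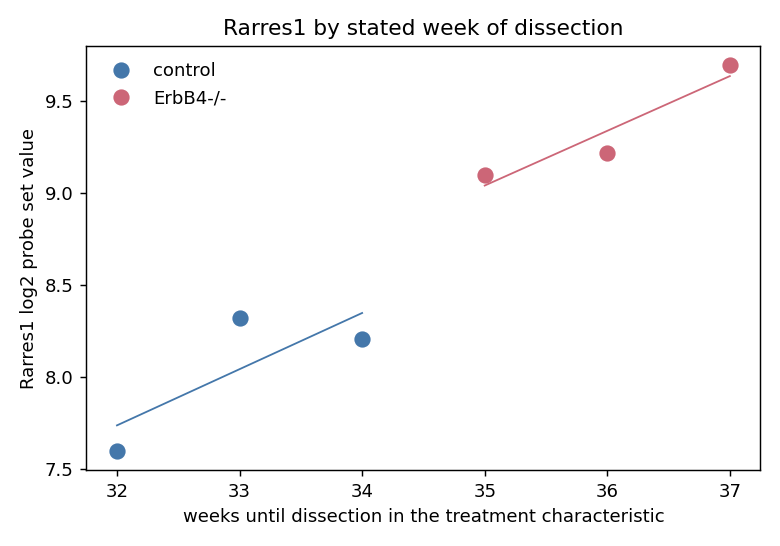
Rarres1 log2 value (y axis) of each array against the weeks until dissection that the treatment characteristic gives (x axis), with a straight line fitted within each group of 3. The lines have slopes of 0.31 in control and 0.30 in ErbB4-/- liver, and the groups share no week. The points at weeks 32 and 37 are control replicate 1 and ErbB4-/- replicate 3.

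Rbp4, the plasma carrier of retinol, measured 12.79, 12.87 and 12.86 in control and 12.93, 12.91 and 12.997 in ErbB4-/- liver. The groups did not overlap, but they were only 0.042 apart at their nearest arrays. The difference of 0.11 (SE 0.052), or 1.08-fold, did not pass (limma, adjusted p = 0.760). Its 95% interval, not adjusted for the number of genes, ran from -0.022 to 0.24. Control replicate 1 was lowest and ErbB4-/- replicate 3 highest for Rbp4, as for Rarres1, and without both the difference was 0.057.

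Aldh1a1, the cytosolic enzyme that oxidises retinal and is abundant in liver, measured 12.32, 12.51 and 12.51 in control and 12.52, 12.41 and 12.67 in ErbB4-/- liver. The groups overlapped, and the difference of 0.086 did not pass (limma, adjusted p = 0.800; 95% interval -0.15 to 0.32). It was 0.021 without control replicate 1, 0.019 without ErbB4-/- replicate 3 and -0.046 without both, a change of sign. The extreme arrays were again those 2.

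Aldh1a2, the enzyme that makes most retinoic acid in the embryo, had low values that can be background, 3.61 on each control array and 3.65, 3.66 and 4.25 in ErbB4-/- liver. The difference of 0.24 did not pass (limma, adjusted p = 0.760; 95% interval -0.18 to 0.67). It rested on ErbB4-/- replicate 3, without which it was 0.046, and it was 0.047 with control replicate 1 left out as well. The other 5 arrays lay within 3.61 to 3.66.

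Dhrs3, the reductase that returns retinal to retinol, measured 9.78, 9.70 and 9.86 in control and 10.06, 9.86 and 9.66 in ErbB4-/- liver. Its highest and lowest values were both ErbB4-/- arrays. The difference was 0.079 (limma, adjusted p = 0.843; 95% interval -0.20 to 0.36), -0.022 without ErbB4-/- replicate 1 and 0.18 without ErbB4-/- replicate 3. Leaving out control replicate 1 together with ErbB4-/- replicate 3 also gave 0.18. ErbB4-/- replicate 3, highest for Rarres1, was lowest for Dhrs3.

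Cyp26a1, the hydroxylase that clears retinoic acid in liver and the member with the direct repeat shown above, measured 4.35, 4.51 and 4.47 in control and 4.53, 4.75 and 4.49 in ErbB4-/- liver. The groups overlapped only in that control replicate 2, at 4.51, lay above ErbB4-/- replicate 3, at 4.49, on a low signal that can be background. The difference was 0.15 (SE 0.089), or 1.11-fold (limma, adjusted p = 0.760; 95% interval -0.073 to 0.37), and it was 0.071 without ErbB4-/- replicate 2. ErbB4-/- replicate 3 was the lowest of its group for Cyp26a1.

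Cyp26b1, a second enzyme of that kind, measured 5.24, 5.40 and 5.39 in control and 5.51, 5.19 and 5.33 in ErbB4-/- liver. The highest and the lowest array were both ErbB4-/-. The difference was -0.0014, and 0.0062 after quantile normalization again (limma, adjusted p = 1 as deposited; 95% interval -0.25 to 0.25). It was -0.052 without control replicate 1, 0.0038 without ErbB4-/- replicate 3 and -0.047 without both.

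Of the 6 measured genes other than Rarres1, 5 were higher and 1 was lower in ErbB4-/- liver, with a median difference of 0.097, beside 54.7% of all genes higher and a median of 0.015. None of the 6 passed, and 0 of 6 had an unadjusted p under 0.05 (limma), against 5.72% of all genes. Rbp4 and Aldh1a2 were the 2 of 6 without overlap between the groups, both higher, where 4.52% of all genes were higher without overlap and 3.81% lower, and nothing is read from that count because it comes from the contrast that chose Rarres1. The largest upper bound of the 6 intervals was 0.67, for Aldh1a2, and the others ended between 0.24 and 0.37, or at most 1.29-fold. These intervals leave room for small shifts and do not show that the genes were alike in the groups. The largest of the 6 point estimates was 0.24, for Aldh1a2, beside 1.30 for Rarres1. With the stated week in the fit that contrast was no longer there: Rarres1 was at 0.39 (SE 0.31) and Dhrs3 at 0.32 (SE 0.23), the largest of the 6. Rbp4 was then at 0.0044, Cyp26a1 at 0.090, Cyp26b1 at 0.024, Aldh1a1 at -0.17 and Aldh1a2 at -0.20. The week term comes only from the first and last week of each group, with control replicate 1 and ErbB4-/- replicate 3 among those arrays.

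**Figure D3:**
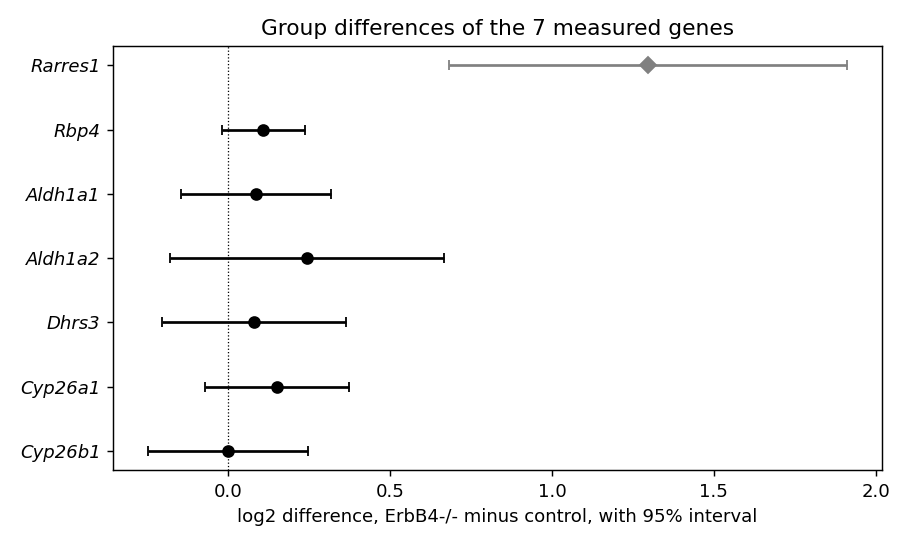
Log2 difference, ErbB4-/- minus control (x axis), with its 95% interval for the 7 measured genes. Rarres1, drawn in grey with a diamond because its values chose it, lies at 1.30. Its interval takes no account of that choice and is not read as a test. The other intervals all include 0 and end at 0.67 or below.

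In 6 lists of other retinoid genes, with 78 different genes measured of 87, 36 were higher and 42 lower in ErbB4-/- liver, with a median difference of -0.018. None passed, and 1 of 78 had an unadjusted p under 0.05 (limma). Groups did not overlap for 3 higher genes and 2 lower ones, where all genes gave 4.52% and 3.81%. With control replicate 1 and ErbB4-/- replicate 3 left out together, 46 of 78 were higher, with a median of 0.015.

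Among 12 carriers and uptake proteins, 6 were higher and 6 lower. Transthyretin, the partner of RBP4 in plasma (Ttr), measured 13.97, 14.01 and 14.01 in control and 14.04, 14.01 and 13.91 in ErbB4-/- liver. The scavenger receptor gene Scarb1, which takes up carotenoids and cholesterol esters, differed by 0.25 and the retinol transporter gene Stra6 by 0.077. The retinoid carrier genes Rbp7 and Crabp1 differed by -0.090 and 0.12, and Lrp1, a receptor for lipoprotein remnants, by 0.014. None of the 12 passed (limma, adjusted p between 0.760 and 0.987).

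In the list of storage and carotenoid cleavage, 6 of 12 were higher. Lrat, which esterifies retinol for storage, measured 6.77, 8.21 and 8.21 in control and 7.75, 6.82 and 6.48 in ErbB4-/- liver, a difference of -0.72, SE 0.52 (limma, adjusted p = 0.760). Control replicate 1 lay among the low ErbB4-/- arrays, so the groups overlapped widely, and the difference was -1.20 without that array, -0.45 without ErbB4-/- replicate 3 and -0.93 without both. The lipase gene Pnpla2 differed by 0.30 and the carotenoid oxygenase gene Bco2 by 0.15. The carboxylesterase genes Ces1e and Ces1f differed by 0.30 and 0.094. None of the list passed (limma).

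Of 22 retinol and retinal dehydrogenase genes 11 were higher and 11 lower, with a median of 0.00098. Rdh16 measured 9.09, 8.91 and 9.16 in control and 9.16, 9.40 and 10.18 in ErbB4-/- liver. Its difference of 0.52 was 0.22 without ErbB4-/- replicate 3 and 0.24 with control replicate 1 left out as well. Dhrs4 differed by 0.11. The groups overlapped for neither gene, though for Rdh16 they all but touched. Rdh14 and Rdh5 differed by 0.11 and 0.14. The abundant alcohol dehydrogenase gene Adh1 differed by -0.044 and the retinol dehydrogenase gene Rdh7 by 0.060. None of these passed (limma, adjusted p between 0.760 and 0.977 over the list).

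Among 5 further retinoic acid oxidising cytochromes, Cyp2c39 was the one with a large spread, at 8.06 in control replicate 1 against 5.51 to 6.21 on the other arrays. Its difference of -0.55 was 0.26 without that array, which stood apart in sex-biased genes too. With ErbB4-/- replicate 3 left out as well the difference was 0.40. Cyp2w1 measured 5.12, 4.81 and 4.86 in control and 4.80, 4.76 and 4.602 in ErbB4-/- liver, a difference of -0.21 without overlap between the groups. Cyp1b1, Cyp2s1 and Cyp26c1 differed by 0.047, 0.017 and 0.0051, and none of the 5 passed (limma). Of 12 receptors and coregulators 4 were higher and 8 lower. Rxrb measured 6.33, 6.48 and 6.28 in control and 6.49, 6.52 and 6.82 in ErbB4-/- liver, and Rxra, the main RXR of hepatocytes, differed by -0.11. Rxrg differed by 0.18, the corepressor gene Nrip1 by -0.17 and the coactivator gene Ncoa2 by 0.064. Rarb, named here for the repeat in its promoter, differed by -0.031, from 4.72, 4.88 and 4.72 to 4.73, 4.998 and 4.50. None of the 12 passed (limma).

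Retinoic acid target genes, a list that shares Lrat, Crabp2, Stra6 and others with the lists above, held 21 measured genes, with 8 higher and 13 lower and a median of -0.045. Foxa1, a hepatocyte transcription factor, measured 6.97, 7.40 and 7.09 in control and 7.61, 7.39 and 7.59 in ErbB4-/- liver, a difference of 0.38 that did not pass (limma, adjusted p = 0.760). Transglutaminase 2 (Tgm2), a classical retinoic acid target, differed by -0.14. Rai14 differed by -0.16, and its groups did not overlap.

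**Figure D4:**
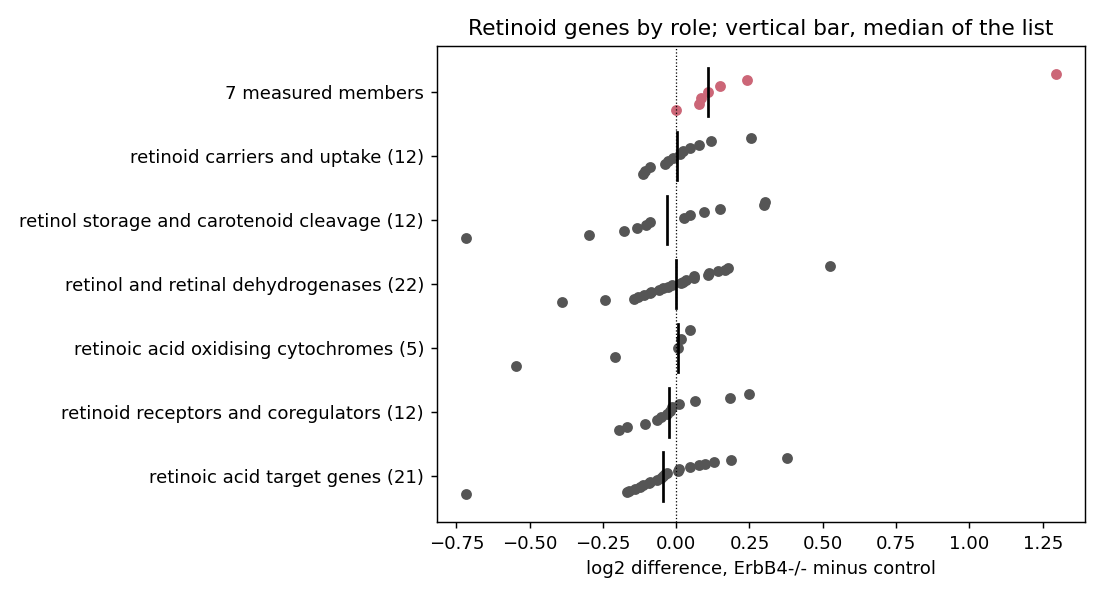
Log2 difference, ErbB4-/- minus control (x axis), of each measured gene in the member list and in 6 other retinoid lists (rows, number of genes in brackets), with the median of each list as a bar. Rarres1 stands at 1.30, Lrat is lowest at -0.72, and the medians of the 6 other lists lie between -0.045 and 0.0051.

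Receptors of chemerin, the product of Rarres2, were all lower. Cmklr1, its signalling receptor on macrophages and other cells, measured 5.42, 5.52 and 5.57 in control and 5.08, 5.29 and 5.32 in ErbB4-/- liver, a difference of -0.28, and the groups did not overlap. Ccrl2, a receptor that binds chemerin without signalling, differed by -0.53 and Gpr1 by -0.028. None passed (limma, adjusted p = 0.760 for Cmklr1 and Ccrl2). All 13 markers of Kupffer cells and macrophages were lower as well, with 11 of 13 not overlapping, where all genes gave 3.81%. Their mean ranged from 8.55 to 8.85 on control and from 7.34 to 8.19 on ErbB4-/- arrays. In whole tissue fewer cells of a type and less RNA per cell cannot be told apart, and the part of these markers in the receptor values was not tested.

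Marker lists of the cells that handle retinoids differed in how they moved with Rarres1. The mean of 18 stellate cell markers lay between 7.23 and 7.26 on control and between 6.80 and 7.13 on ErbB4-/- arrays, lowest in ErbB4-/- replicate 3, where Rarres1 was highest. Of these 18 markers 16 were lower, and those of the highest level, Dcn, Ecm1 and Reln, differed by -0.75, -0.46 and -0.29. None of the 18 passed (limma). Endothelial markers were lower for 9 of 10 genes, with means of 7.93 to 8.32 on control and 6.82 to 7.94 on ErbB4-/- arrays, and neutrophil markers for 10 of 10, with 5.28 to 7.31 and 4.55 to 4.95. The mean of 12 hepatocyte markers, 8 of them lower and 4 higher, lay between 12.36 and 12.47 on control and between 12.34 and 12.41 on ErbB4-/- arrays. Cholangiocyte markers, 8 measured with 3 higher and 5 lower, ranged from 4.80 to 4.93 and from 4.80 to 4.92. The defining markers Krt19 and Epcam stayed at 4.73 or below on every array, while Sox9 ranged from 6.54 to 7.14 and Anxa3 from 6.13 to 6.65. Cldn7 differed by 0.34 and Anxa3 by -0.39, and Anxa3 was the 1 lower gene of the list without overlap, where all genes gave 3.81%. None of the 8 passed (limma). Mesothelial markers, 10 measured with 4 higher and 6 lower, ranged from 5.63 to 5.87 and from 5.62 to 5.71. Msln measured 4.68, 4.52 and 4.59 in control and 4.80, 4.71 and 4.79 in ErbB4-/- liver, low values that can be background. It did not pass (limma, adjusted p = 0.760). Msln was the 1 gene of the list higher without overlap, and Krt18, with a difference of -0.36, the 1 lower, where all genes gave 4.52% and 3.81%. Krt18 did not pass either (limma). Acute phase genes, 15 measured, were highest in control replicate 1 at 12.12, where Rarres1 was lowest, and ranged from 10.83 to 11.56 on the others. Of these 15 genes 14 were lower in ErbB4-/- liver, 4 of them without overlap, where all genes gave 3.81%, and none passed (limma). The part of these cells and of the acute phase in the Rarres1 difference was not tested.

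**Figure D5:**
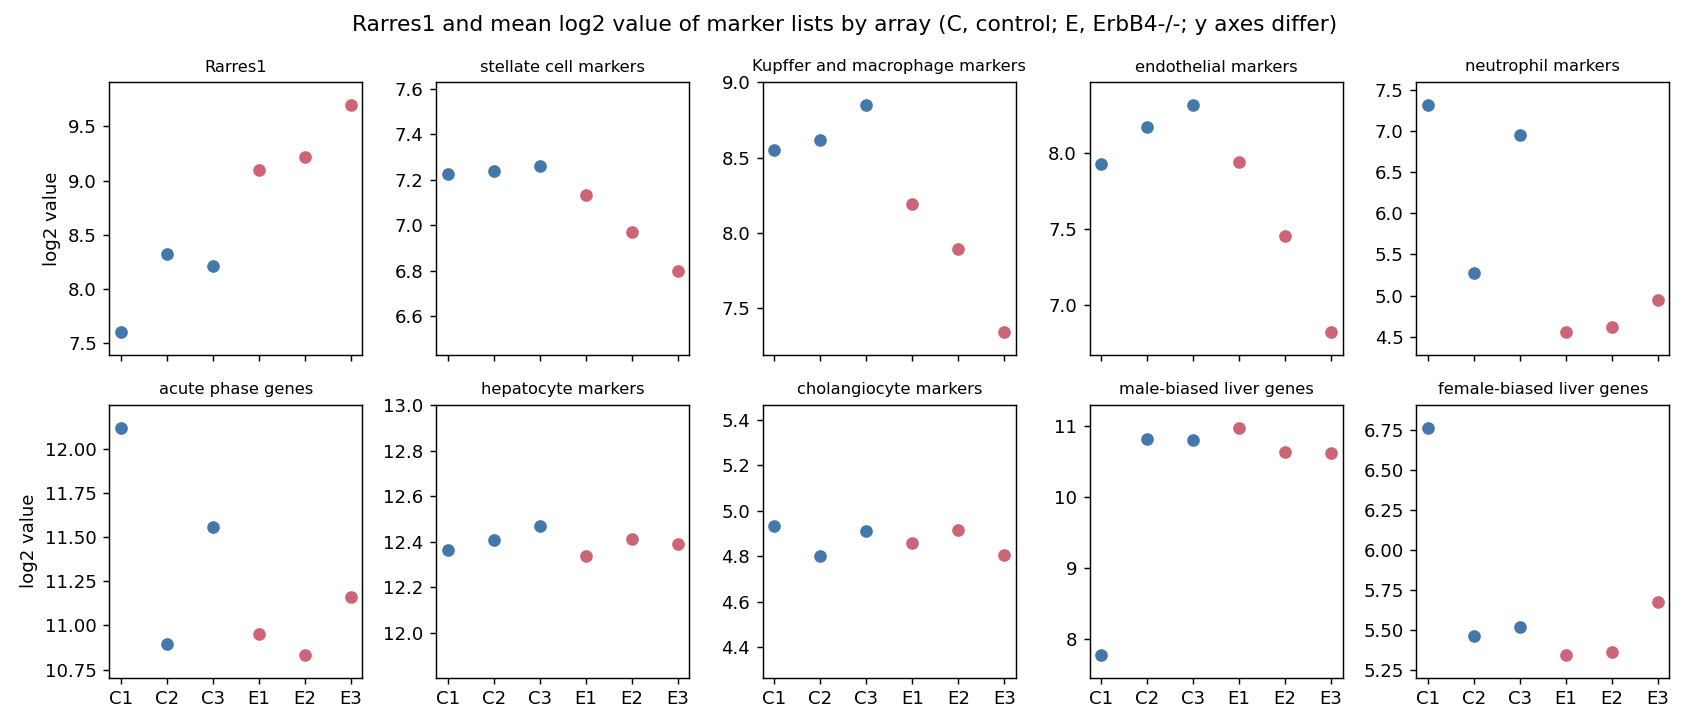
Log2 value of Rarres1 and mean log2 value of 9 marker lists (y axes, each with its own range) on the 6 arrays (x axis, control replicates C1 to C3 and ErbB4-/- replicates E1 to E3). Hepatocyte means stay within 12.34 to 12.47, macrophage means separate into 8.55 to 8.85 and 7.34 to 8.19, and male-biased genes are low in control replicate 1 only.

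The genes most like Rarres1 were sought by the root mean square, over the 6 arrays, of the difference between the deviations of both genes from their own means, among 16883 protein-coding genes. The nearest were Tbc1d30, a Rab GTPase-activating protein, at 0.32, Ifi202b, an interferon-inducible gene, at 0.32, the histone gene H4c14 at 0.33, Pramel16 at 0.35 and Neb, the muscle protein nebulin, at 0.36. A gene with no variation at all would lie at 0.71. Tbc1d30 measured 6.01, 6.22 and 6.64 in control and 7.49, 6.79 and 7.88 in ErbB4-/- liver. Ifi202b, Pramel16 and H4c14 had low values that can be background, 2.80 to 4.35, 2.57 to 3.86 and 3.996 to 5.26. None of the 5 is on a retinoid list, and nothing is read from that, because the 6 other retinoid lists hold only 78 of 22180 measured genes. Aldh1a2 ranked 523rd at 0.57, Aldh1a1, Cyp26a1 and Rbp4 ranked between 2224 and 2503 at 0.64 to 0.65, and Cyp26b1 and Dhrs3 ranked 7742 and 8675 at 0.71 and 0.72. The deviations were not scaled, so a gene of small range lies near 0.71 whatever its pattern. These ranks therefore do not show whether such a gene shares the pattern of Rarres1. Rbp4 and Aldh1a1 shared their lowest and highest arrays with Rarres1, while Dhrs3 was lowest where Rarres1 was highest.

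Genes tied to the RARRES1 protein were examined too. Latexin (Lxn), which lies near Rarres1 on the same chromosome, measured 5.70, 5.70 and 5.56 in control and 5.72, 5.70 and 5.04 in ErbB4-/- liver, so only ErbB4-/- replicate 3, the array with the highest Rarres1, was low. Agbl2, a tubulin carboxypeptidase reported to bind RARRES1, lay between 3.32 and 3.50 on all arrays. Of 15 measured relatives and carboxypeptidases 10 were higher and 5 lower, and none passed (limma). Agbl4 differed by 0.17 without overlap, on values of 3.75 to 4.06 that can be background. Agbl5, Agbl3 and Cpe differed by 0.29, 0.081 and 0.081, and Cpd and Agtpbp1, the highest in level, by -0.078 and 0.039.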

How the data were processed

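Liver of 6 mice was profiled with Affymetrix whole-transcript arrays, 1 per mouse, from Trizol RNA labelled with biotin, per the labels' protocols. The authors deposited 1 log2 value per probe set and array. The sources used here do not give their normalization, and the log base was read from the range of 1.74 to 14.4. Of 41345 probe sets, 23521 have 1 gene symbol, 1814 several and 16010 none here. Per gene the single-symbol probe set with the highest mean was kept, and 0 symbols changed on matching to RefSeq (GRCm38.p6). Exactly equal values on 2 or more arrays occurred in 57.5% of the 22180 genes. No background signal was used, so low values can be background. Levels of different probe sets were set side by side to pick probe sets and named genes, for the level filter and for the cholangiocyte markers. No amount of RNA is read from such comparisons.

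ErbB4-/- was compared with control with limma 3.58.1 (R 4.3.3), using lmFit, then eBayes and two-sided tests, with Benjamini-Hochberg adjustment over all 22180 genes at 0.05. The fit was tested on simulated data. A permutation test of 3 against 3 cannot go below 0.1. The number of arrays limits the precision, with a median standard error of 0.10. The replicates are biological per the design text. Members and lists were chosen with earlier results of these data known, and 262 of 287 listed genes were measured. Named genes are the members, the 4 smallest p and 2 highest levels of each retinoid list, the 3 highest levels of the stellate list, the 5 genes nearest to Rarres1, Erbb4, Lxn, Agbl2 and the chemerin receptors. Chosen outside this rule were Rarb for its promoter, Krt19, Epcam and Msln as defining markers, Krt18 as the lower mesothelial gene without overlap, and Clca3a1 as the gene that passed. Afp, Gpc3, Golm1, Ly6d, Spink1, Igf2, Mki67, Top2a, Tff3, Cd44, Sox9, Anxa3 and Cldn7 were chosen after their values were seen. Other marker lists were described by counts and ranges. Alternatives were quantile normalization again, median centring, a level filter, means of probe sets, every row, a trend and robust prior, a replicate block, the week as covariate, each array left out, both arrays that stood apart left out, and, added after seeing the data, only genes without equal values and Lrat, Rdh16 and Cyp2c39 without the arrays that stood apart. Figures used matplotlib 3.10.9.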

Additional observations from a re-analysis of the deposited data

How the results depend on the processing

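No alternative made any of the 6 tested members pass: of 92 alternative values 82 kept the sign and 0 passed, with a lowest adjusted p of 0.655 (limma). Rarres1 kept its sign under all 16 alternatives, with 1.07 to 1.43 when single arrays were left out, 0.89 without control replicate 1 and ErbB4-/- replicate 3 together, and 0.39 with the week as covariate. The level filter, means of probe sets, every row, the prior and the replicate block cannot change a member's difference of group means. Nor can the restriction to genes without equal values, so the signs kept under these settings are no support. With the week as covariate Aldh1a1 turned to -0.17, Aldh1a2 to -0.20 and Cyp26b1 to 0.024, while Dhrs3 went from 0.079 to 0.32 and Rbp4 from 0.11 to 0.0044. Aldh1a1 was -0.046 without both arrays, and Cyp26b1 0.0062 after quantile normalization again. Leaving out single arrays gave -0.022 to 0.18 for Dhrs3 and -0.085 to 0.077 for Cyp26b1. The 1 gene passing over all genes went to 0 with every row tested (2314 at an unadjusted p under 0.05), with the replicate block (1268), with the week (941), without both arrays (1327) and without any single array (0 to 0, with 900 to 1552). The cause was not tested. Of the other retinoid genes 41.0% to 56.4% were higher when single arrays were left out, and 61.5% with the week.

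Replicate numbers did not pair the samples: deviations of same-numbered arrays correlated, across genes, between -0.10 and 0.034. The replicate block left the Rarres1 difference at 1.30 and called 0 genes. No depth applies to arrays, and low members such as Aldh1a2 and Cyp26a1 fell below the median level filter.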

Other observations

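Equal values are common in the deposited table. Of 22180 genes, 12752 had the same value, to all deposited digits, on at least 2 arrays, and 122 had the same value on all 6. Among the members Aldh1a1 was equal in control replicates 2 and 3, and Dhrs3 in control replicate 3 and ErbB4-/- replicate 2. Restricting the fit to the 9428 genes without equal values widened the standard error of Rbp4 from 0.052 to 0.093 and left 1 gene passing (limma).

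Of 10 liver tumour markers, Afp and Gpc3 were high on 1 array. Afp, the fetal albumin relative, measured 6.67 in ErbB4-/- replicate 1 against 4.86 to 5.29 on the other arrays, and Gpc3, a glypican of liver tumours, 5.11 against 3.93 to 4.29. In the same array Dhrs3 and Cyp26b1 had their highest values, 10.06 and 5.51, and Rarres1 the lowest of its group, 9.10. Golm1, Ly6d and Spink1, of the same marker list, also had their highest values on that array, 5.91, 6.39 and 3.69. Other markers of the list went otherwise: Igf2, Mki67 and Top2a had their lowest values on that array, 4.54, 5.23 and 3.996. Tff3 had its highest, 9.40, in ErbB4-/- replicate 3, and Cd44 its highest, 6.16, in control replicate 1. These genes were chosen after their values were seen, and their relation to the members was not tested.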
